A study of Homo sapiens with 6 samples.

Results

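The extracellular matrix genes described here are 77 protein-coding genes for collagens, laminin chains, fibulins (EFEMP1 and EFEMP2 included), fibrillins, thrombospondins and latent TGF-beta binding proteins, together with TNC, SPARC, NID1 and NID2. The rule that defines them uses symbol and protein-coding class and no measured value, though it was set with earlier results of these data known. It was applied to a table of 46427 genes, of which 19672 are protein-coding. The cells sequenced were MDA-MB-231/RR, a human line made radioresistant from MDA-MB-231, which stems from a triple-negative breast cancer. The co-treated group had 3 libraries of cells given ortho-topolin riboside (oTR, a cytokinin nucleoside of plant origin) together with melatonin, and the control group had 3 libraries of the same line labelled control. Neither the doses nor the length of treatment nor the vehicle are stated in the sources used here. Libraries of cells given only oTR or only melatonin were not analysed here, so the effects of the agents cannot be told apart. All libraries come from 1 cell line grown in culture and detached with trypsin, and the values are RNA levels, not protein laid down in a matrix.

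Matrix genes build the scaffold to which cells attach. Collagens assemble from 3 chains into fibrils, sheet-like networks or beaded filaments. Laminins are cross-shaped trimers of an alpha, a beta and a gamma chain that form the basement membrane together with type IV collagen and nidogen, whereas fibrillins and fibulins make up microfibrils and elastic fibres. Latent TGF-beta binding proteins anchor the inactive growth factor TGF-beta to those microfibrils, and thrombospondins, tenascin-C and SPARC (osteonectin) modulate how cells bind to and remodel the scaffold. Breast cancer cells with mesenchymal features, of which MDA-MB-231 is a standard example, make part of this matrix themselves.

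The libraries held between 50569611 and 72204161 estimated counts in the co-treated group and between 56521572 and 72309015 in the control group. All 7 of the genes listed as present in MDA-MB-231 (VIM, CD44, KRT18, KRT8, AXL, CAV1 and EGFR) exceeded 1 TPM (a level per length of transcript), and of 5 listed as absent or low only GATA3 did so. Of 9 fibroblast markers, 7 stayed below 1 TPM, with DCN, FAP, THY1, POSTN and COL1A2 listed at 0 in every library; their summed level was 9.65 to 9.98 TPM in co-treated and 9.77 to 11.9 TPM in control libraries, most of it COL1A1 itself. All 4 endothelial markers and 3 of 4 immune markers (all but CD68) were also below 1 TPM. Libraries of 1 group differed by more than counting error, with a chi-square per degree of freedom of 11.7 to 19.5, so none were counted as the same library.

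Of the 77 matrix genes, 35 averaged at least 1 TPM, 22 at least 10 TPM and 8 at least 50 TPM. As a share of all estimated counts the 77 genes made up 0.315, 0.323 and 0.32% in the 3 co-treated libraries, against 0.307, 0.298 and 0.305% in the 3 control libraries. The filter on low counts kept 48 of the 77 for testing, 10 of them under 1 normalized CPM (a level per library, not per length) in both groups. Of the 29 left out, 12 were listed at 0 in every library (COL1A2, COL6A5, COL6A6, COL9A1, COL10A1, COL11A1, COL14A1, COL22A1, COL23A1, NID1, NID2 and THBS2), and the other 17 had at most 14 estimated counts in any library. Both nidogens, which cross-link laminin to type IV collagen, were thus at 0.

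In the comparison of co-treated with control cells, 19 of the 48 tested genes, 39.6%, differed at an adjusted p under 0.05 (edgeR quasi-likelihood test with Benjamini-Hochberg adjustment over all genes tested), where 33.7% of all 16557 tested genes did so. Higher levels in co-treated cells were called for 7 (14.6%, against 16.6% of all genes) and lower levels for 12 (25%, against 17.1% of all genes). The median log2 fold change was -0.10 over the 48 genes and 0.00 over all genes tested. The groups did not overlap for 31 of the 48, and for 47.4% of all genes tested. The differences were mostly small: the median size among the 19 was 1.32-fold, 14 were under 1.5-fold, and only FBLN1 and COL9A2 reached 2-fold. In bulk RNA, fewer cells that express a gene and less of its RNA per cell cannot be told apart. The split between directions depended on the scale. On log2(TPM + 1), tested with limma, 11 of the 48 were higher (27.3% of all genes) and 6 lower (8.09% of all genes). The median over all genes was 0.09 there. A pseudocount of 0.1 gave the same split (27.1 and 8.08% of all genes). Without the filter 65 matrix genes were tested on log2(TPM + 1), and 11 were higher and 6 lower (12.4 and 3.73% of 25945 genes). With library size as the sole scaling the split of the 48 was 11 higher (23.0%) and 11 lower (12.5%). With a trend on gene length removed, 5 were higher (15.0% of all genes) and 20 lower (17.7% of all genes), and with trends on length and GC content removed 7 were higher (16.8%) and 19 lower (18.9%).

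**Figure D1:**
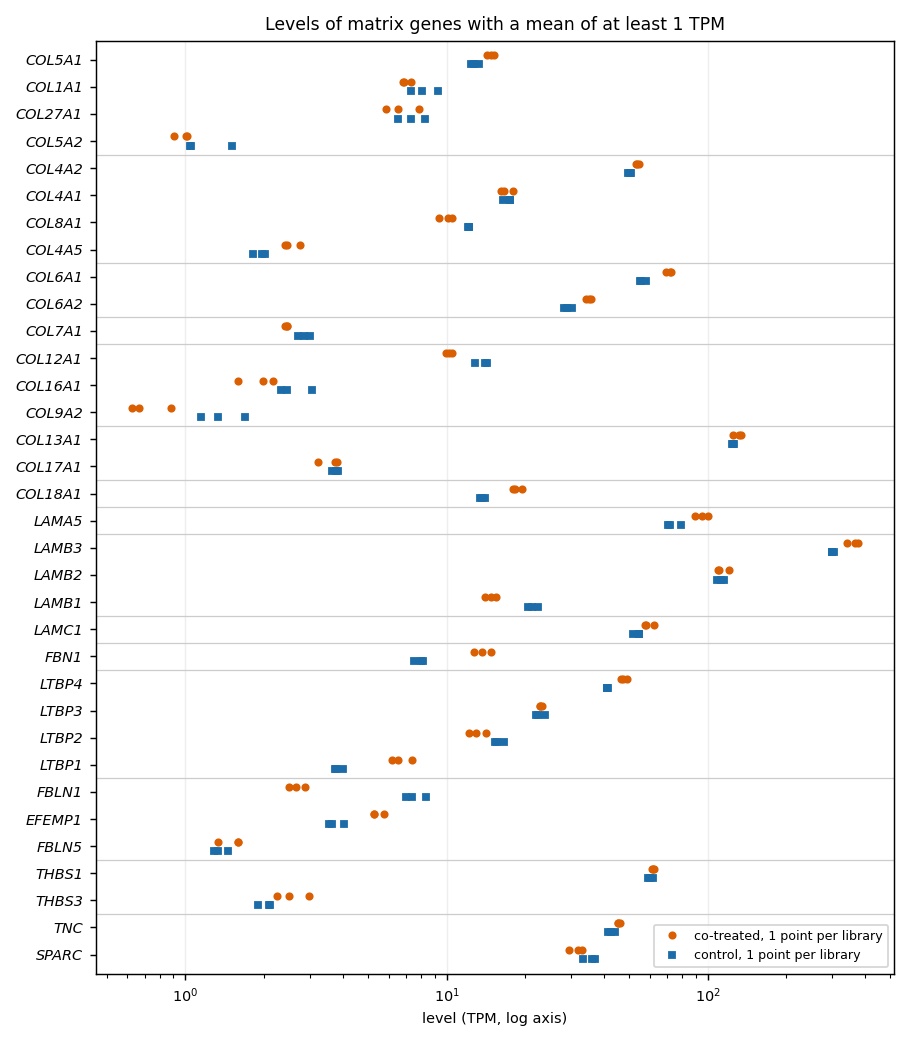
Levels of matrix genes with a mean of at least 1 TPM, with TPM on a log axis and 1 point per library (circles, co-treated; squares, control), grouped by family from fibrillar collagens at the top to TNC and SPARC at the bottom. LAMB3 stands highest, near 361 TPM in co-treated and 301 TPM in control cells, and FBLN1, COL12A1, LAMB1 and FBN1 show separate clouds of points for the 2 groups.

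**Figure D2:**
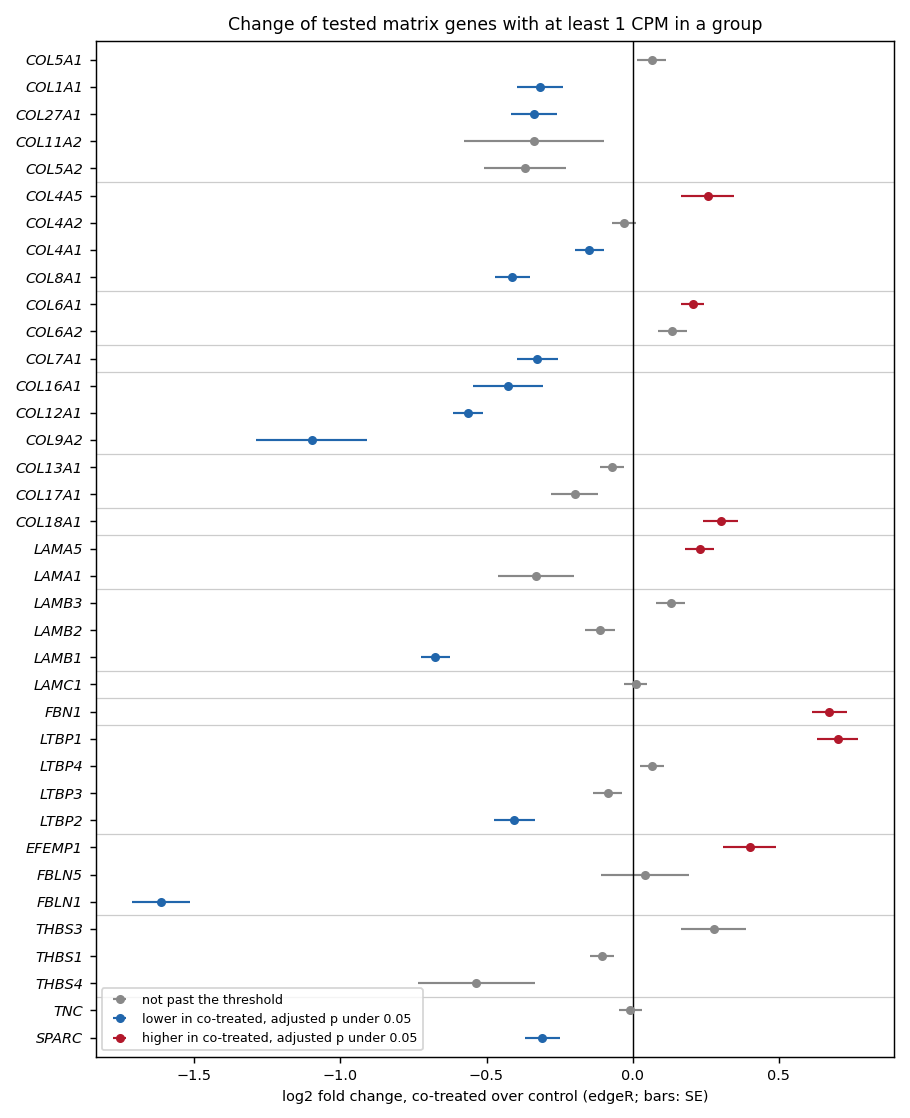
Log2 fold change of co-treated over control, with standard errors from the edgeR fit, for tested matrix genes with at least 1 CPM in a group, in the same family order. Of the 19 genes past the threshold, 7 lie to the right of 0 and 12 to the left, and FBLN1 at -1.61 lies farthest from 0.

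Among the laminins, LAMB1 fell and LAMA5 rose, while the other tested chains did not pass the threshold. LAMB1, the beta chain of the broadly distributed laminins, had 37.4, 36.8 and 39.7 CPM in the co-treated libraries, against 62.6, 58.3 and 61.2 CPM in the control libraries. The 2 groups were far apart relative to their spread, and the log2 fold change was -0.68 ± 0.05 (SE; adjusted p = 1.14e-05, edgeR). LAMA5, the alpha chain of the main laminins of mature epithelial and vascular basement membranes, stood at 100, 95.5 and 89.5 TPM in co-treated and at 79.3, 70.5 and 71.8 TPM in control libraries. Every co-treated library was above every control library, and the log2 fold change of LAMA5 on the count scale was 0.23 ± 0.05 (adjusted p = 0.00615, edgeR); it was 0.10 ± 0.05 with the length trend removed (adjusted p = 0.144) and no longer passed.

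LAMB3, the beta chain of the laminin of epithelial hemidesmosomes, was the most abundant matrix gene, with 342, 377 and 365 TPM in co-treated and 299, 298 and 305 TPM in control libraries. These TPM values did not overlap, yet on normalized CPM the groups did, with a log2 fold change of 0.13 ± 0.05 (95% interval 0.02 to 0.24; adjusted p = 0.0737, edgeR), and the adjusted p was 0.00412 on log2(TPM + 1). On the count scale LAMB3 was also called higher under some alternatives, with an adjusted p of 0.043 with DESeq2 and 0.0126 with library size alone. Its alpha chain partner was far lower: LAMA3 averaged 0.0203 TPM in co-treated and 0.0292 TPM in control cells. LAMB2, which can take the place of LAMB1 in the trimer, stood at 110.5, 120.4 and 109.9 TPM in co-treated and 115.3, 108.8 and 112.0 TPM in control libraries, which overlapped; its log2 fold change on the count scale was -0.11 with a 95% interval from -0.22 to 0.00. LAMB2 was called lower without co-treated library 2 and with the length trend removed. The common gamma chain LAMC1 averaged 202 ± 5.48 CPM in co-treated and 201 ± 1.66 CPM in control cells. The interval of the LAMC1 log2 fold change ran from -0.08 to 0.10.

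The proportions of chains per length showed the LAMB1 difference directly. LAMB1 transcripts per LAMC1 transcript, from TPM, numbered 0.238, 0.243 and 0.268 in co-treated and 0.408, 0.378 and 0.407 in control libraries, without overlap. LAMA5 per LAMC1 was 1.6 ± 0.0420 in co-treated and 1.38 ± 0.0760 in control cells (SD, n = 3 each), again without overlap, whereas LAMB2 per LAMC1 overlapped at 1.92 ± 0.150 and 2.09 ± 0.0780. The pairs were picked with the single-gene values in view, and an exact permutation test of 3 against 3 libraries cannot give a p below 0.10, so these ratios are descriptions.

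The type IV collagen chains COL4A1 and COL4A2, the core network of basement membranes, are encoded head to head on chromosome 13 with 126 bases between their starts, and they differed by 1.11-fold or less between groups. COL4A1 averaged 48.5 ± 2.22 CPM in co-treated and 53.7 ± 1.06 CPM in control cells (SD, n = 3 each), a log2 fold change of -0.15 ± 0.05 (adjusted p = 0.0405, edgeR). That call was lost on log2(TPM + 1), where the log2 difference was -0.02 (adjusted p = 0.793), and on leaving out any library but the first co-treated one, with adjusted p between 0.0578 and 0.162. COL4A2 averaged 149 ± 1.48 CPM in co-treated and 153 ± 1.6 CPM in control cells, with a log2 fold change of -0.03 (interval -0.12 to 0.06; adjusted p = 0.592). COL4A2 was called lower with the length trend removed (-0.12, adjusted p = 0.0439) and higher on unfiltered log2(TPM + 1) (0.10, adjusted p = 0.0398, limma). Per length, COL4A1 stood at 0.315 ± 0.0130 of COL4A2 in co-treated and at 0.343 ± 0.00850 in control cells. The stretch between the 2 starts (RefSeq, GRCh38.p14, chr13:110307158-110307283, plus strand, on which COL4A2 is transcribed to the right and COL4A1 to the left) is shown because a single short interval separates the starts of both chains. Capitals mark a CCAAT box (CCAAT) and a GC box (GGGCGG).

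COL4A1-COL4A2: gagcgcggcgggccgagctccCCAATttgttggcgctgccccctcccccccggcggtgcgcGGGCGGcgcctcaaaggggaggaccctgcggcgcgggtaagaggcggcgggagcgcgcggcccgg

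The X-linked chain COL4A5 averaged 7.10 ± 0.407 CPM in co-treated and 5.93 ± 0.366 CPM in control cells, with a log2 fold change of 0.26 ± 0.09 (adjusted p = 0.0457, edgeR). This call was marginal: leaving out any library ended it, with adjusted p between 0.0607 and 0.148 and log2 fold changes between 0.21 and 0.29, and DESeq2 gave an adjusted p of 0.0796. COL8A1, a short-chain network collagen of the vessel wall and of the cornea, had 24.7, 24.3 and 22.7 CPM in the co-treated libraries, against 31.6, 31.4 and 32.3 CPM in the control libraries. The control libraries were nearly equal and lay above all co-treated ones, with a log2 fold change of -0.41 ± 0.06 (adjusted p = 0.000357, edgeR).

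COL18A1 rose. It encodes a basement membrane collagen with heparan sulfate chains whose C-terminal fragment is endostatin, an inhibitor of vessel growth. It averaged 43.2 ± 2.61 CPM in co-treated and 35.1 ± 1.41 CPM in control cells (SD, n = 3 each), with a log2 fold change of 0.30 ± 0.06 (adjusted p = 0.00282, edgeR). COL7A1, which forms the anchoring fibrils that fasten a basement membrane to the tissue beneath, had 9.29, 9.49 and 9.83 CPM in co-treated and 12.5, 11.2 and 12.2 CPM in control libraries. Its groups did not overlap, and it fell by 0.33 ± 0.07 on the log2 scale (adjusted p = 0.00619, edgeR), but on log2(TPM + 1) the adjusted p was 0.113.

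Among fibril-forming collagens, COL1A1 and COL27A1 fell. COL1A1, a chain of the major fibrillar collagen of connective tissue, averaged 17.4 ± 1.05 CPM in co-treated and 21.7 ± 1.92 CPM in control cells, a log2 fold change of -0.32 ± 0.08 (adjusted p = 0.0091, edgeR); on log2(TPM + 1) the adjusted p was 0.124. Its usual partner chain COL1A2 was listed at 0 in all 6 libraries, so type I collagen RNA was represented by 1 of its 2 chains. COL27A1, a fibrillar collagen of developing cartilage, had 17.6, 16 and 19.1 CPM in co-treated and 23.3, 20.8 and 22.6 CPM in control libraries. The highest co-treated library lay just below the lowest control one; the log2 fold change was -0.34 ± 0.08 (adjusted p = 0.00633, edgeR), against -0.11 ± 0.12 on log2(TPM + 1) (adjusted p = 0.488). COL5A1, whose product sets the diameter of collagen fibrils, averaged 53.2 ± 0.534 CPM in co-treated and 50.9 ± 1.9 CPM in control cells, with an interval of the log2 fold change from -0.04 to 0.17. COL5A1 was called higher on log2(TPM + 1). The partner chain COL5A2 averaged 2.88 ± 0.145 and 3.70 ± 0.616 CPM in co-treated and control cells, with an adjusted p of 0.0572 (edgeR).

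The fibril-associated collagens, which decorate the surface of fibrils without forming them, held 3 called genes of 4 tested, and all 3 were lower in co-treated cells, as were 17.1% of all genes tested. COL9A2, a chain of the cartilage collagen type IX, had 0.991, 1.37 and 1.09 CPM in the co-treated libraries, against 2.00, 2.95 and 2.41 CPM in the control libraries. The groups were apart although the level was low, and its log2 fold change was -1.10 ± 0.19 (adjusted p = 0.00138, edgeR); its partners COL9A1 and COL9A3 were low as well, COL9A1 at 0 and COL9A3 at 0.301 CPM in co-treated and 0.286 CPM in control cells. COL12A1, a long collagen of tendon and tumour stroma, had 48.0, 46.2 and 47.8 CPM in co-treated and 71.0, 71.0 and 67.9 CPM in control libraries. Within each group the COL12A1 values were tight, and the log2 fold change was -0.56 ± 0.05 (adjusted p = 1.82e-05, edgeR). COL16A1, a minor collagen of skin and cartilage, had 3.73, 4.72 and 5.20 CPM in co-treated and 5.67, 6.44 and 6.26 CPM in control libraries. Its co-treated libraries were spread out; the log2 fold change was -0.43 ± 0.12 (adjusted p = 0.0214, edgeR). Without co-treated library 1, control library 2 or control library 3 the COL16A1 value was -0.30, -0.39 or -0.41 with adjusted p of 0.0612, 0.0712 or 0.059, and on log2(TPM + 1) the adjusted p was 0.06.

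COL6A1, a chain of the beaded filaments that surround cells close to the basement membrane, stood at 72.5, 71.4 and 69.2 TPM in co-treated and at 58.2, 55.1 and 55.5 TPM in control libraries. The groups were apart, and the log2 fold change on the count scale was 0.21 ± 0.04 (adjusted p = 0.00358, edgeR). The second chain, COL6A2, lies 93022 bases away on chromosome 21 and averaged 50.5 ± 1.22 CPM in co-treated and 46.0 ± 1.88 CPM in control cells, with a log2 fold change of 0.13 (interval 0.03 to 0.24; adjusted p = 0.057, edgeR), and passed the threshold on log2(TPM + 1) at an adjusted p of 0.00597. The third chain COL6A3 was near 0, with 0.276 and 0.349 CPM in co-treated and control cells. Of the collagens that span the cell membrane, COL13A1, which is found at cell junctions and focal adhesions, was the second most abundant matrix gene, with 133.7, 132.2 and 124.7 TPM in co-treated and 124.9, 126.3 and 124.1 TPM in control libraries. These TPM values overlapped, yet normalized CPM did not, at 160.2 to 168.0 CPM in co-treated and 169.9 to 175.9 CPM in control libraries. On the count scale the interval of the COL13A1 log2 fold change ran from -0.16 to 0.02. The hemidesmosome collagen COL17A1 averaged 8.68 ± 0.659 CPM in co-treated and 9.94 ± 0.113 CPM in control cells. Its interval ran from -0.37 to -0.02 with an adjusted p of 0.0759 (edgeR). COL17A1 was called lower with the length trend removed.

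**Figure D3:**
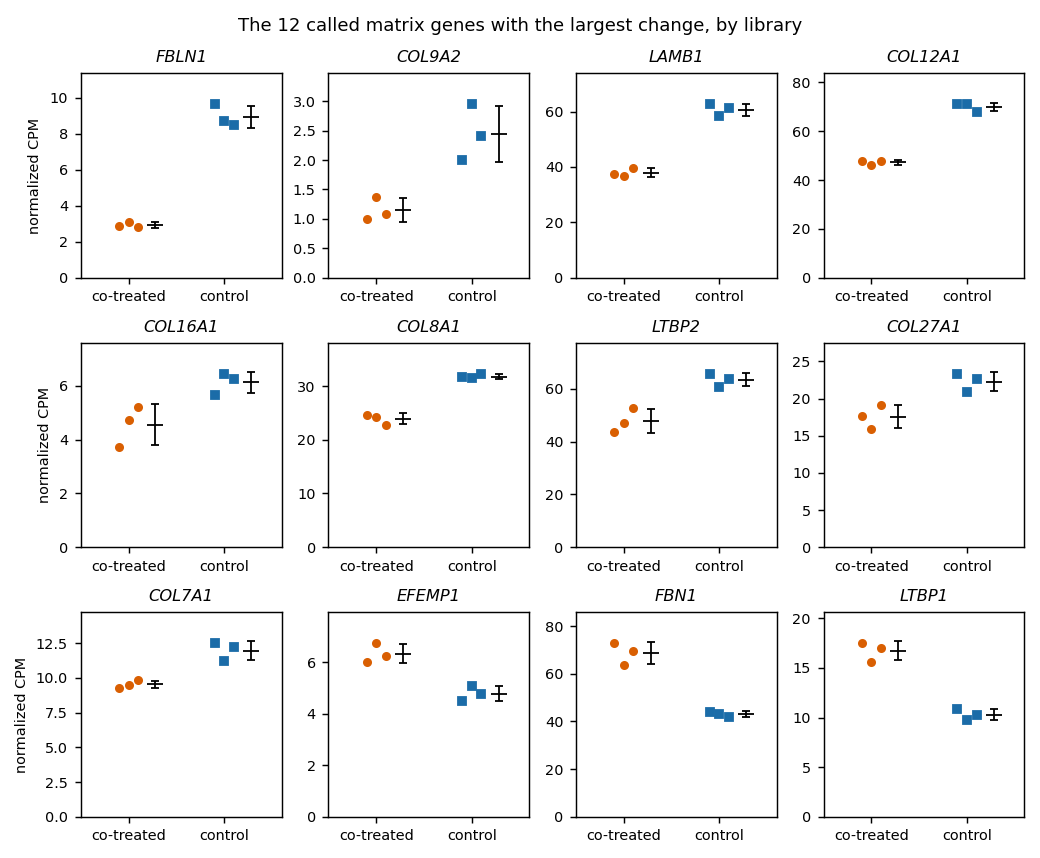
Normalized CPM in each library for the 12 called matrix genes with the largest fold changes, co-treated at the left and control at the right of each panel, with the mean and SD of 3 libraries beside the points; every axis starts at 0. FBLN1 lies at 2.81 to 3.12 CPM in co-treated and 8.48 to 9.64 CPM in control libraries, and in each of the 12 panels the groups do not overlap.

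The microfibril genes held the largest rises. FBN1, the main structural protein of microfibrils, had 72.7, 63.6 and 69.6 CPM in the co-treated libraries, against 44.1, 43.3 and 42.0 CPM in the control libraries. Its lowest co-treated value was well above the highest control value, with a log2 fold change of 0.67 ± 0.06 (adjusted p = 2.17e-05, edgeR). LTBP1, which covalently holds latent TGF-beta and binds to fibrillin, had 17.5, 15.6 and 17.0 CPM in co-treated and 10.9, 9.79 and 10.2 CPM in control libraries. It showed the largest rise among the 19 genes past the threshold, at 0.70 ± 0.07 on the log2 scale (adjusted p = 7.82e-05, edgeR). Per length, LTBP1 stood at 0.489 ± 0.00970 of FBN1 in co-treated and 0.489 ± 0.0190 in control cells (SD, n = 3 each), and the libraries of the 2 groups overlapped in this ratio.

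LTBP2, a microfibril protein that does not bind latent TGF-beta, moved the other way. It had 43.8, 47.2 and 52.6 CPM in the co-treated libraries, against 65.6, 60.8 and 63.9 CPM in the control libraries. The groups did not overlap, and LTBP2 fell by 0.41 ± 0.07 on the log2 scale (adjusted p = 0.001, edgeR). In TPM it stood at 0.960 ± 0.120 of FBN1 in co-treated and 2.02 ± 0.0840 of FBN1 in control cells. LTBP3 and LTBP4, which also bind latent TGF-beta, did not pass: LTBP3 averaged 46.6 ± 0.823 CPM in co-treated and 49.5 ± 2.40 CPM in control cells (interval of the log2 fold change -0.20 to 0.03), and LTBP4 averaged 105 ± 3.94 and 100.3 ± 1.61 CPM (interval -0.03 to 0.16). LTBP4 passed upward on log2(TPM + 1), at an adjusted p of 0.0086 (limma). LTBP3 was called lower with the length trend removed.

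FBLN1 changed most of all the matrix genes. It encodes a calcium-binding glycoprotein that binds fibronectin, laminin and elastic fibres, and had 2.86, 3.12 and 2.81 CPM in the co-treated libraries, against 9.64, 8.74 and 8.48 CPM in the control libraries. Every co-treated library lay far below every control library, with a log2 fold change of -1.61 ± 0.10, or 3.06-fold (adjusted p = 4.05e-06, edgeR). Its 2 main transcripts share the start at position 45502883 of chromosome 22 and both were lower: the shorter, of 2251 bases, had 1.43, 1.78 and 1.21 TPM in co-treated and 5.19, 3.45 and 4.13 TPM in control libraries. The longer, of 2904 bases, had 1.10, 1.01 and 1.07 TPM in co-treated and 2.57, 2.56 and 2.58 TPM in control libraries. EFEMP1, a fibulin known from an inherited disorder of the retina, had 6.02, 6.74 and 6.24 CPM in co-treated and 4.50, 5.09 and 4.77 CPM in control libraries. Here the co-treated values were the higher ones throughout, with a log2 fold change of 0.40 ± 0.09 (adjusted p = 0.00754, edgeR). FBLN1 per FBN1, in TPM, was 0.195 ± 0.0260 in co-treated and 0.961 ± 0.0550 in control cells, a pair chosen after the single-gene values were seen.

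The windows of 250 bases before the RefSeq start (GRCh38.p14) are shown for 5 of the changed genes whose RefSeq start lay within 25 bases of the 5′ end of the transcript that led in these libraries, the largest falls (FBLN1, LAMB1 and COL12A1) and, for contrast, the rises of LTBP1 and COL18A1. Each reads 5′ to 3′ on the strand of its gene, and capitals mark matches on either strand to 5 motifs: the GC box GGGCGG, the CCAAT box CCAAT, the TATA box TATAAA, the AP-1 site TGANTCA and the E-box CACGTG. The FBLN1 window is chr22:45502633-45502882 (plus strand), that of LAMB1 chr7:108003162-108003411 (minus strand) and that of COL12A1 chr6:75206054-75206303 (minus strand). The LTBP1 window is chr2:32946703-32946952 (plus strand), before a start whose transcript averaged 0.797 TPM and so gave only part of the gene's level, and that of COL18A1 is chr21:45404915-45405164 (plus strand).

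FBLN1: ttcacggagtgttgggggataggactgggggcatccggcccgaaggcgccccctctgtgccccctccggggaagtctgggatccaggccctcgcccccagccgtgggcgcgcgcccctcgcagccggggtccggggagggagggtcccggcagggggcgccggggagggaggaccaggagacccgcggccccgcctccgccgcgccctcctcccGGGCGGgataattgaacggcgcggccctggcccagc

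LAMB1: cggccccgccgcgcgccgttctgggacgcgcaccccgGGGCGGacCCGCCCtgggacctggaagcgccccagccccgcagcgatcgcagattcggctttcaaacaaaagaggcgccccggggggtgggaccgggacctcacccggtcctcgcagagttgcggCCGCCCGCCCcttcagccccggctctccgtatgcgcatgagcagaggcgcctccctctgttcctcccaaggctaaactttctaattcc

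COL12A1: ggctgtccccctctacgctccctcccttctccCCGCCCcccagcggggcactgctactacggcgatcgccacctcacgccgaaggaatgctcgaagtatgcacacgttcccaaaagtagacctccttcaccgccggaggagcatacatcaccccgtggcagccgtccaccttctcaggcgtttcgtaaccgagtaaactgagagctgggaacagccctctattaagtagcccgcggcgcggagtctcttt

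LTBP1: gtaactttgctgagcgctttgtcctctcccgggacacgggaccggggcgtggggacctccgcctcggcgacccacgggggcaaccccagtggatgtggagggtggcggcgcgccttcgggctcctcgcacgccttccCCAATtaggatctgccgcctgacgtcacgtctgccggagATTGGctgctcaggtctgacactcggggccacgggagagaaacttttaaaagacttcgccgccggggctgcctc

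COL18A1: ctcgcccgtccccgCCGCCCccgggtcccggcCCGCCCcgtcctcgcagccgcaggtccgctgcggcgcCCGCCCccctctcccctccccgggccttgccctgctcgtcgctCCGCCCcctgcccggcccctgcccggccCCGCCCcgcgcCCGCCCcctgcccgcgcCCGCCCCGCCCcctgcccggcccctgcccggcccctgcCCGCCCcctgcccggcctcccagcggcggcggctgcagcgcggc

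The FBLN1 and COL12A1 windows each held 1 GC box, that of LAMB1 held 4 and that of COL18A1 held 9, some of them overlapping, whereas LTBP1 had none and held 2 CCAAT boxes. A RefSeq window was at hand for 61 of the 77 genes and for 15 of the 19 called ones. In only 10 of these 15 did the RefSeq start lie within 25 bases of the leading transcript's 5′ end. It lay 27, 145, 724, 739 and 13788 bases away for COL7A1, COL16A1, COL9A2, FBN1 and COL27A1. The counts below include these windows, and of these genes all but FBN1 had a GC box. A GC box occurred in 2 of 5 windows of called genes that were higher and in 9 of 10 windows of those that were lower, and in 42.6% of all 35116 promoter windows in the table. A CCAAT box occurred in 2 of 5 and 1 of 10, and in 32.0% of all windows. None of the 15 windows held an AP-1 site or an E-box, motifs found in 6.57% and 6.34% of all windows. Of the 10 windows of lower genes, 1 had a TATA box (10.7% of all windows). The shares of all windows were not limited to the genes tested here, so they are not a like background for called genes. No share over tested genes was computed. These are counts of letters in a fixed window, not of bound sites.

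Among the remaining glycoproteins, SPARC fell and the thrombospondins and TNC did not pass. SPARC, which binds collagen and calcium, averaged 46.7 ± 2.92 CPM in co-treated and 58.0 ± 3.67 CPM in control cells (SD, n = 3 each), a log2 fold change of -0.31 ± 0.06 (adjusted p = 0.00332, edgeR); on log2(TPM + 1) it was -0.17 ± 0.06 (adjusted p = 0.056). THBS1, an activator of latent TGF-beta and a ligand of CD47, stood at 61.6, 61.4 and 62.4 TPM in co-treated and 60.1, 61.7 and 59.3 TPM in control libraries, which overlapped. Its normalized CPM did not overlap, at 201.8 to 209.6 in co-treated and 216.7 to 223.6 in control libraries. On the count scale the log2 fold change of THBS1 was -0.10 (interval -0.20 to -0.01, adjusted p = 0.0719, edgeR). With the length trend removed THBS1 was called lower. THBS3 averaged 5.14 ± 0.509 and 4.23 ± 0.241 CPM in co-treated and control cells (interval of the log2 fold change 0.04 to 0.51; adjusted p = 0.0684), and its span shares 482 bases with MTX1, so reads there cannot be assigned without strand. TNC, an anti-adhesive protein of tumour stroma, averaged 138 ± 1.98 CPM in co-treated and 139 ± 4.26 CPM in control cells, with an interval from -0.10 to 0.09.

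The 15 other tested genes without a call were low, with means in the higher group from 0.154 to 3.7 CPM. Their log2 fold changes ran from -0.56 to 1.26 with standard errors of 0.13 to 0.94, 8 below 0 and 7 above, and the smallest adjusted p among them was 0.0572 (edgeR). They include the laminin alpha chains LAMA1, LAMA2 and LAMA3, so LAMA5 was the only laminin alpha chain above 1 TPM.

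Changes in the mix of transcripts were looked for in the 29 matrix genes with enough transcripts, and none passed (limma diffSplice, adjusted p under 0.05), where 1.9% of 9961 genes did. At an unadjusted p under 0.05 there were 4, and the smallest adjusted p was 0.177, for LTBP3. Transcript values are apportioned estimates, and among near-identical models they can be unstable: 2 LAMB1 models with the same ends had 1.58, 9.45 and 8.02 TPM and 10.5, 2.08 and 3.41 TPM in the 3 co-treated libraries, while their gene sums were steady.

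**Figure D4:**
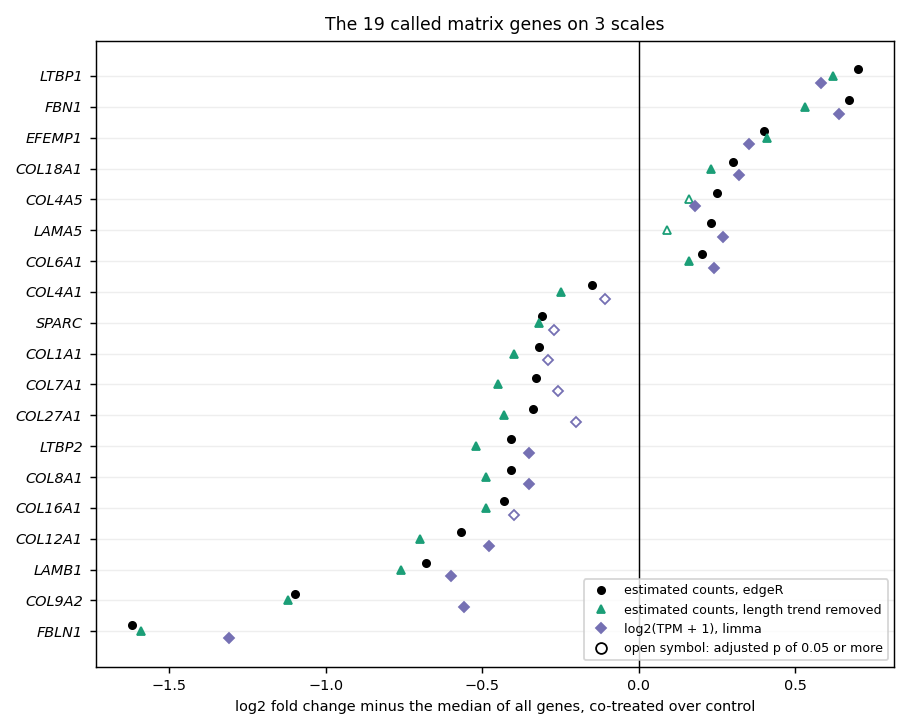
Log2 fold change of the 19 called matrix genes minus the median of all genes, on the estimated counts (circles), on the estimated counts with the trend on gene length removed (triangles) and on log2(TPM + 1) (diamonds); open symbols did not pass the threshold. The sign is the same on the 3 scales for each of the 19, and the open symbols are COL4A5 and LAMA5 without the length trend and COL4A1, SPARC, COL1A1, COL7A1, COL27A1 and COL16A1 in TPM.

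The size of the called differences was read against the scales, since the median of all genes shifted by 0.09 on log2(TPM + 1) and by 0.12 on log2(TPM + 0.1). Relative to that median, FBLN1 stood at -1.31, LAMB1 at -0.60, COL12A1 at -0.48, FBN1 at 0.64 and LTBP1 at 0.58 on log2(TPM + 1). The low gene COL9A2 stood at -0.56 there, a scale that understates changes of low genes. Over 18 alternative settings, 11 of the 19 kept their call in each one (FBLN1, COL9A2, LAMB1, COL12A1, COL8A1, LTBP2, FBN1, LTBP1, EFEMP1, COL18A1 and COL6A1), and none of the 19 changed sign.

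The genes that process collagen divided. Of 25 tested genes for folding, hydroxylation, secretion and cross-linking, 3 rose (CRTAP, MIA3 and PLOD2) and 6 fell (LOXL3, SERPINH1, PPIB, P3H2, PLOD3 and FKBP10), with a median log2 fold change of 0.01. These are 12% higher and 24% lower, against 16.6 and 17.1% of all genes tested. The split was 7 higher and 5 lower on log2(TPM + 1), where 27.3% of all genes were higher and 8.09% lower. It was 5 and 5 with library size alone (23.0 and 12.5% of all genes), and 1 and 8 with the length trend removed (15.0 and 17.7% of all genes). SERPINH1, the collagen-specific chaperone of the endoplasmic reticulum, had 103.8, 119.0 and 118.9 CPM in co-treated and 157, 153 and 172 CPM in control libraries. All co-treated values were below all control values, with a log2 fold change of -0.50 ± 0.06 (adjusted p = 0.000245, edgeR). LOXL3, a lysyl oxidase that cross-links collagen and elastin, averaged 3.58 ± 0.749 CPM in co-treated and 6.42 ± 0.792 CPM in control cells, a log2 fold change of -0.85 ± 0.15 (adjusted p = 0.00147, edgeR). The main family member LOX averaged 12.2 ± 1.06 and 13.8 ± 0.637 CPM in co-treated and control cells and did not pass (adjusted p = 0.102). CRTAP forms the prolyl 3-hydroxylase complex with P3H1 and PPIB. It averaged 371 ± 8.32 CPM in co-treated and 299 ± 4.38 CPM in control cells, a log2 fold change of 0.31 ± 0.04 (adjusted p = 0.00032, edgeR). PPIB itself fell by 0.43 ± 0.06 on the log2 scale (adjusted p = 0.000501, edgeR), and P3H1 did not pass, at 0.03 ± 0.04 (adjusted p = 0.636, edgeR). The calls of PLOD2 and MIA3 were not stable: without co-treated library 1 their log2 fold changes were 0.11 (adjusted p = 0.16) and 0.16 (adjusted p = 0.133), and leaving out co-treated library 2, control library 2 or control library 3 also ended both. Both were lost with the length trend removed (adjusted p = 0.0609 for PLOD2 and 0.133 for MIA3), PLOD2 also with limma-voom (0.0541) and MIA3 on log2(TPM + 1) (0.0516). The call of FKBP10, -0.21 ± 0.06 in full, was lost without control library 1 (adjusted p = 0.0564, edgeR) or 3 (adjusted p = 0.0558, edgeR). FKBP10 also lost its call with library size alone and on log2(TPM + 1).

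Receptors for these proteins were called in 1 direction: 13 of 23 tested matrix receptors were higher in co-treated cells (56.5%, against 16.6% of all genes upward), with a median log2 fold change of 0.28. None was lower by edgeR, limma-voom or DESeq2, and 0 were lower at an unadjusted p under 0.05 (edgeR). ITGB3, which pairs with ITGAV to bind fibrillin, fibronectin and other ligands, averaged 12.4 ± 0.835 CPM in co-treated and 5.88 ± 0.625 CPM in control cells, a log2 fold change of 1.07 ± 0.09 (adjusted p = 2.97e-05, edgeR). ITGA2, the alpha subunit of a collagen receptor, averaged 547 ± 19.2 CPM in co-treated and 283 ± 11.6 CPM in control cells, a log2 fold change of 0.95 ± 0.05 (adjusted p = 1.05e-06). The other collagen receptor subunit ITGA1 stood at 0.71 ± 0.06, and the laminin receptor subunits ITGA3, ITGA6 and ITGB4 at 0.33 ± 0.04, 0.35 ± 0.06 and 0.62 ± 0.10. ITGB5, ITGB8, ITGAV, SDC2, DAG1, CD47 and ITGB1 made up the rest, and ITGB1, the common beta subunit, changed least, at 0.13 ± 0.04 (adjusted p = 0.0335, edgeR). Across the alternatives 11 to 14 receptors were higher; with the length trend removed 1 was lower (CD44, named after its value was seen). The calls of ITGB1 and ITGB8 were not stable. Without co-treated library 1 the adjusted p was 0.0895 for ITGB1 and 0.18 for ITGB8, and both calls were also lost without control library 1 or 3, with no count filter (0.0566 and 0.0571) and with the length trend removed (0.0611 and 0.0824). ITGB8 also missed the threshold with DESeq2 (adjusted p = 0.0697), with limma-voom (0.0702) and on log2(TPM + 1) (0.131).

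Of 15 tested genes for other matrix proteins, 2 rose (13.3%, against 16.6% of all genes) and 5 fell (33.3%, against 17.1%), with a median of -0.08. HSPG2, the basement membrane proteoglycan perlecan, averaged 213 ± 7.48 CPM in co-treated and 152 ± 5.87 CPM in control cells, a log2 fold change of 0.48 ± 0.05 (adjusted p = 5.8e-05, edgeR). FN1, fibronectin, averaged 73.8 ± 2.55 and 59.5 ± 2.36 CPM in co-treated and control cells, a log2 fold change of 0.31 ± 0.05 (adjusted p = 0.000822). MATN3, a cartilage matrix adaptor, had the largest fall at -0.58 ± 0.15 (adjusted p = 0.0123, edgeR), and TNXB, CCN1, ECM1 and TGFBI were the others lower. CCN2, which binds fibronectin and integrins, averaged 376 ± 13.1 CPM in co-treated and 398 ± 9.60 CPM in control cells and did not pass (adjusted p = 0.19). The split was 2 higher and 3 lower on log2(TPM + 1) (27.3 and 8.09% of all genes), and 4 and 5 with library size alone (23.0 and 12.5%). Without co-treated library 2 or control library 3 the fall of TGFBI no longer passed (adjusted p = 0.0566 and 0.0543, edgeR). On log2(TPM + 1) the falls of TNXB and TGFBI did not pass. That of MATN3 was lost on log2(TPM + 0.1) and on unfiltered log2(TPM + 1).

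In the TGF-beta axis, whose ligands the LTBPs hold, 4 of 13 genes rose (30.8%, against 16.6% of all genes) and 2 fell (15.4%, against 17.1%), with a median of 0.08. TGFB1 averaged 85.2 ± 3.03 CPM in co-treated and 63.3 ± 1.05 CPM in control cells, a log2 fold change of 0.43 ± 0.05 (adjusted p = 8.32e-05, edgeR), and TGFBR1, TGFBR3 and SMAD4 were the others higher. TGFB2 averaged 25.5 ± 2.55 CPM in co-treated and 35.8 ± 2.94 CPM in control cells, a log2 fold change of -0.49 ± 0.08 (adjusted p = 0.0011, edgeR).

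**Figure D5:**
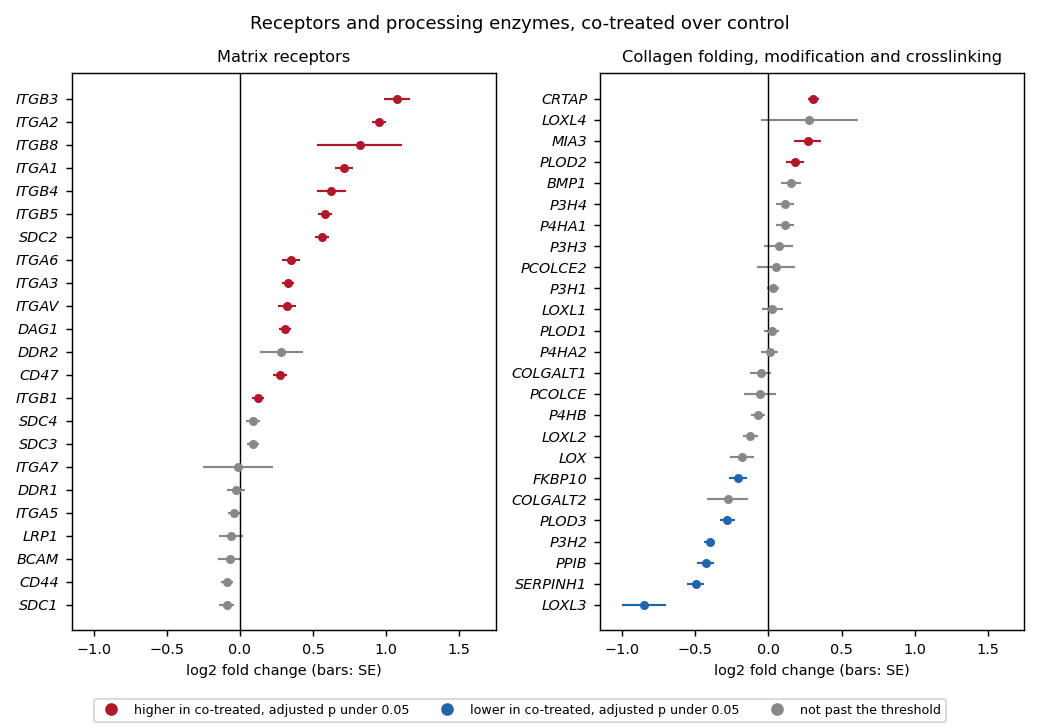
Log2 fold change of co-treated over control with standard errors for matrix receptors (left) and for genes of collagen folding, modification and cross-linking (right), sorted by value. Of 23 receptors 13 pass the threshold to the right of 0 and none to the left, whereas of 25 processing genes 3 pass to the right and 6 to the left.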

How the data were processed

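Total RNA of 6 MDA-MB-231/RR libraries was sequenced, 3 co-treated with oTR and melatonin and 3 control, grouped by the sample titles. Trimmomatic 0.38, HISAT2 2.1.0, Bowtie2, SAMtools 1.9, StringTie 2.1.3b and the build GRCh38 come from the submitters' processing notes, which name no roles. No source used here states the strandedness or the kit.

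The authors deposited estimated counts, FPKM and TPM per gene and per transcript, per the file headers. The counts are treated here as estimates, not as numbers of whole reads. All 326546 low, non-zero transcript values equalled the deposited FPKM times transcript length and a constant fitted per library, after rounding up (tolerance 0.06 counts). Whole reads from which FPKM had been derived would also meet this check. All 46427 genes held the sum of their transcripts. The estimated counts are whole numbers as deposited and were used as they stand; TPM as deposited gave levels and an alternative test, and the 6 gene FPKM columns were not used. Columns headed Con were taken as control and those headed Mo as co-treated, a reading the labels leave unsaid.

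Genes were filtered with filterByExpr (minimum count 10), leaving 16557, and tested with edgeR 4.0.16 (quasi-likelihood, relative log expression factors, which the labels' protocols name) in R 4.3.3; p-values were adjusted by Benjamini-Hochberg and called under 0.05. Normalized CPM use the same factors; values are mean ± SD of 3 libraries, fold-change errors are SE, and intervals are 95%. Separate cultures are not stated for the libraries, so the spread behind each p-value may be technical. limma 3.58.1 served for log2(TPM + pseudocount 1 or 0.1) and for transcript usage, and DESeq2 1.42.0 as an alternative. Data were also simulated for the edgeR comparison (16310 genes). Of 50 genes each changed by 1.25, 1.5, 2 and 4-fold, 13, 35, 40 and 45 were called, with 6 false among 139 calls. Only those genes were changed and the spread between libraries was an assumed one, whereas 33.7% of tested genes were called in the real comparison. The recovery and the share of false calls therefore need not carry over to it.

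The matrix genes, the gene lists and the tests were chosen with earlier results of these data known. Named were all called genes of at least 1 CPM in the higher group, tested genes without a call of at least 5 CPM, their trimer partners, and in each list the largest rise and fall plus SERPINH1, LOX, FN1 and CCN2; other list members are named where a count is spelled out. Values of some genes that the rule covers are not reported here. Values per library are given for the 12 largest changes and, in TPM, for the 6 most abundant genes. Promoter sequences are RefSeq (GRCh38.p14).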

Additional observations from a re-analysis of the deposited data

How the results depend on the processing

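Alternatives were other scalings (TMM, library size alone), DESeq2, limma-voom, no count filter, a minimum count of 30, TPM with pseudocount 1 or 0.1 and without filter, trends on length or on length and GC removed, a replicate block, and leaving out each library. The counts of all genes called were 4516 higher and 1339 lower on log2(TPM + 1), 4490 and 1338 on log2(TPM + 0.1), and 968 lower without a filter. Matrix genes called higher numbered 11 on the 3 TPM settings and when scaled by library size alone; those called lower numbered 6 on the 3 TPM settings, 20 without the length trend and 19 without the length and GC trends. For collagen processing, 5 were higher with library size alone, 7 on log2(TPM + 1), 8 on log2(TPM + 0.1) and 1 without the length trend; for other matrix genes 4 were higher with library size alone, and 3, 2 and 2 lower on the TPM settings. Receptors had 1 lower call without the length trend and without both trends, and the TGF-beta axis had 1 on unfiltered TPM. Leaving out 1 library gave 2065 to 2357 genes higher and 2158 to 2469 lower, 6 to 7 matrix genes higher and 10 to 13 lower, 1 to 3 collagen-processing genes higher, and 116 (without co-treated library 3) to 217 genes with changed transcript usage. Requiring transcripts of at least 10% of the gene gave 95 such genes. The deviations of same-numbered libraries from their group means correlated at 0.07, 0.00045 and -0.04, and those of differently numbered ones at -0.05 to 0.06. These correlations cannot settle whether same-numbered libraries were paired, and the sample titles give only a number. With the replicate block 7 matrix genes were higher and 12 lower, 3177 and 3190 of all genes, and 105 genes changed transcript usage.

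Signs that changed belonged to genes without a call in the report. COL4A2 was called in opposite directions: it was 0.10 on the TPM settings (adjusted p = 0.0398 with limma on unfiltered TPM) and -0.12 with the length trend removed (adjusted p = 0.0439); it was 0.03 when scaled by library size alone. COL5A1 was -0.05 without the length trend and -0.0038 without both trends. On the TPM settings COL13A1 was 0.06, TNC 0.09, LAMB2 0.02, LTBP3 0.02, THBS1 0.03 and CCN2 0.05. TNC was also 0.05 with library size alone and 0.01 without control library 3. LAMC1 was -0.01 without co-treated library 1, -0.10 without the length trend and -0.08 without both, and LTBP4 was -0.00067 without the length trend. The causes were not tested. Among 14 named genes without a call, 11 were called under some alternative. A GC value was at hand for 86.8% of tested genes and for all 77 matrix genes. In simulated data with a length trend and no changed gene (16257 genes), 157 calls fell to 0 once the trend was removed. The removal used the same covariate as the added trend, so this outcome was built in. It cannot show whether removing the trend is right for the real data. Depth limits the 10 tested genes under 1 CPM most.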
